A study of Mus musculus with 8 samples.

Results

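ATAC-seq, in which the transposase Tn5 cuts accessible DNA and adds sequencing adapters to it, was used to map open chromatin in bone marrow stromal cells of the mouse. The examined set consisted of the 172 regions of the genome with a peak in the libraries ATAC1 and ATAC2 and in none of ATAC3, ATAC4, ATAC5, ATAC6 and ATAC7. Peaks of all libraries that shared 1 base or more were joined into 1 region, and the 164103 peaks formed 50683 regions. The 172 shared regions were therefore selected on the peak calls themselves, and they made up 0.339% of all regions. By the labels, all 7 libraries came from wild type C57BL/6J mice at 6 weeks of age with no treatment given. The methods name C57BL/6JJcl mice and also transgenic mice that express EGFP, both in a wider range of ages. They do not say which of these mice gave the cells for ATAC-seq. Peaks of every library were called against the same Input library. The study sorted cells without CD31, CD45 and TER119 and with Sca-1 and PDGFR-α, then divided them by further surface markers, but the labels do not tell which sorted cells a title stands for. Each title had 1 library, so every difference below is between libraries and has no replicate check. Of 13 stromal marker genes, 4 in ATAC1 (Kitl, Pdgfrb, Twist1 and Col1a1) and 6 in ATAC2 (Cxcl12, Kitl, Pdgfra, Pdgfrb, Col1a1 and Col1a2) had a peak at a start site, that is, centred no more than 1000 bases from it. Of 7 haematopoietic markers, 3 in ATAC1 (Ptprc, Tal1 and Ikzf1) and 2 in ATAC2 (Tal1 and Ikzf1) had one, and none of 6 endothelial markers had one in either library. In ATAC1, Pdgfra, the gene of a marker used to keep cells, had no such peak and Ptprc, the gene of CD45, had one. The part of other cell types in the results was not tested.

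Open chromatin is found at the start sites of active genes, in CpG-rich promoters, and at enhancers, which lie away from start sites and are bound by transcription factors that recognise short motifs. In marrow, stromal and haematopoietic cells lie side by side. RUNX2 directs the osteoblast lineage, PU.1, RUNX1 and GATA factors act in blood cells, and AP-1 is a widely used factor of enhancers in stromal cells.

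Few regions fell to ATAC1 and ATAC2 alone, although both libraries had many peaks in common. ATAC1 held 24510 peaks and ATAC2 held 32280, and 14132 regions had a peak of both. Of these, 8428 regions had a peak in all 7 libraries, 2013 in 6, 1654 in 5, 1355 in 4, 510 in 3 and 172 in ATAC1 and ATAC2 alone, which was 1.22%. ATAC5 had a peak in 92.6% and ATAC6 in 91.9% of the regions of both libraries, against 77.3% for ATAC3, 76.3% for ATAC7 and 74.9% for ATAC4. The lists of ATAC5 (31479 peaks) and ATAC6 (28969) were also longer than those of ATAC3 (16027), ATAC7 (15188) and ATAC4 (15650). Neither these shares nor the counts below were adjusted for the length of the lists. Among regions of exactly 3 libraries, ATAC5 was the third in 268, ATAC6 in 158, ATAC3 in 38, ATAC7 in 28 and ATAC4 in 18. The count of 172 was the 8th of the 21 possible pairs. ATAC2 and ATAC6 formed 2235 such regions, ATAC2 and ATAC5 1727, ATAC1 and ATAC5 854 and ATAC1 and ATAC4 431, whereas ATAC6 and ATAC7 formed 32.

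**Figure D1:**
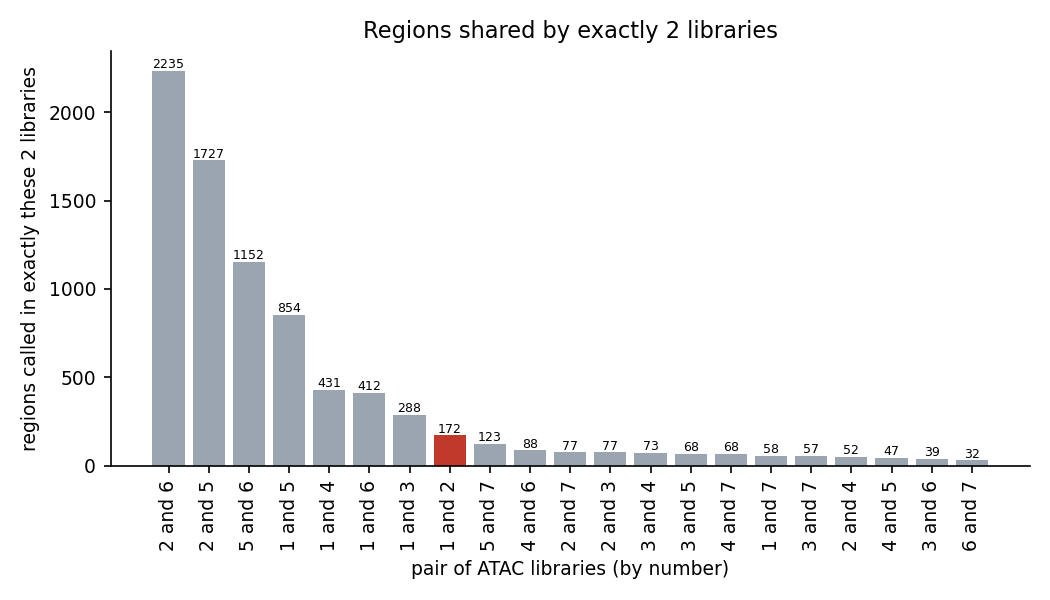
Number of regions (vertical axis) called in exactly the 2 libraries named on the horizontal axis, for all 21 pairs in falling order, with the pair of ATAC1 and ATAC2 in red. The red bar, at 172, is 8th, far below the 2235 regions of ATAC2 and ATAC6.

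The sequences below, on the plus strand of build mm9, show the kinds of DNA that the shared regions hold. They are the central 200 bases of regions, or in Add3 the 130 bases of them outside annotated untranslated regions, and capitals mark letters that match a searched motif on either strand. The first set comes from the start sites of the regions with the best peak ranks and is rich in CpG, with 28 in the printed stretch of Tm9sf2, 17 in Fkbp4, 19 in Add3 and 11 in Hdac2, where the matches are NFY (GCCAAT) and EBF (CCCNNGGGA).

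Tm9sf2 (chr14:122506680-122506879): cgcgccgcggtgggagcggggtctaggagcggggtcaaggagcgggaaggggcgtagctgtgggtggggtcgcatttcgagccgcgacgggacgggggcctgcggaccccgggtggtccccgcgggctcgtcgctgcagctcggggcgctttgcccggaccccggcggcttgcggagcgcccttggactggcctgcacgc
Fkbp4 (chr6:128387948-128388147): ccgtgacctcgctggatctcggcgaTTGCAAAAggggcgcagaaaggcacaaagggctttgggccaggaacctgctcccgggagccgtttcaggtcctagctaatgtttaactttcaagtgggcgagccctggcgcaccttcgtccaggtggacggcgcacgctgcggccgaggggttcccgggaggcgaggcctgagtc
Hdac2 (chr10:36693792-36693991): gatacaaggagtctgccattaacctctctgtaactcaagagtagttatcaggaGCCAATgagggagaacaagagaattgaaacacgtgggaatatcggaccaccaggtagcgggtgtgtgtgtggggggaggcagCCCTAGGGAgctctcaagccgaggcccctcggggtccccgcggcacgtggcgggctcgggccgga
Add3 (chr19:53217580-53217709): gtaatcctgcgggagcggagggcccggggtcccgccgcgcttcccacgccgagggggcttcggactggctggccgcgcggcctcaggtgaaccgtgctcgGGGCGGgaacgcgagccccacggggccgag

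The second set holds regions away from start sites, named by the nearest protein-coding gene. Cd7 and Bcl6 hold the AP-1 letters TGANTCA, and Hivep3 holds the PU.1 letters GAGGAAGT on the minus strand and the C/EBP letters TTGCNNAA. These 3 were chosen after their matches had been seen.

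Cd7 (chr11:120902700-120902899): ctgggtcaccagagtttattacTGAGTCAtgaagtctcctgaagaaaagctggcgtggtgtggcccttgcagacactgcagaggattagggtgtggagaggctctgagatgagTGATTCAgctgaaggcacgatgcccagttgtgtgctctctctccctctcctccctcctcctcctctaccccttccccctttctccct
Bcl6 (chr16:24165638-24165837): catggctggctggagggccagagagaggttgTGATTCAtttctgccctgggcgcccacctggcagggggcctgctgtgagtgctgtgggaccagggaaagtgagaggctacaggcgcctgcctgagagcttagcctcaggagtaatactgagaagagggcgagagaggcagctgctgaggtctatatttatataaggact
Hivep3 (chr4:119632124-119632323): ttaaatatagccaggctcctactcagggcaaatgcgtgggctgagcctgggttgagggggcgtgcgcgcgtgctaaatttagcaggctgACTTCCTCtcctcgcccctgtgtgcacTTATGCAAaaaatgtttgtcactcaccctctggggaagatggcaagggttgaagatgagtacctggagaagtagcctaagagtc

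The third set is nearest to genes of listed lineage regulators and holds no match to any of the 16 motifs. The Runx2 region, the other one nearest to a listed gene, holds GGGCGG and lies in an untranslated region, so it is not printed.

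Runx1 (chr16:92698210-92698409): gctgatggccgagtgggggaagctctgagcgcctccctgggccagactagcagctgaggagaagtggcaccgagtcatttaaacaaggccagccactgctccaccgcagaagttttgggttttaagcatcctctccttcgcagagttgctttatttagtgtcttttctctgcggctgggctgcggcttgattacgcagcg
Hes1 (chr16:30145738-30145937): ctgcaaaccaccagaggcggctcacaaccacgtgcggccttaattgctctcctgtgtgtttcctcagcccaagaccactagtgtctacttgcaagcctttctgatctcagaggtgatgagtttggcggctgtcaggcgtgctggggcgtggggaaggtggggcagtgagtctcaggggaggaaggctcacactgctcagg
Mef2c (chr13:83789527-83789726): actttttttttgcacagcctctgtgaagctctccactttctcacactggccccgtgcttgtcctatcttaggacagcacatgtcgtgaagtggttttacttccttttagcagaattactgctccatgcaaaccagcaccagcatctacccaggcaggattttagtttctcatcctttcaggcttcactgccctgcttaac

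The shared regions were mostly weak peaks of both libraries. Rank was expressed as percent of the list, so that a higher value is a weaker peak. The median rank of the shared regions was 77.9% in ATAC1 (2.16 to 99.7) and 78.8% in ATAC2 (2.07 to 99.9). In both lists, 136 regions (79.1%) ranked below the list median, 9 ranked above it in both, and 1 was in the top 25% of both. Read counts in the outer region of the peak, the wider window from which the peak was cut, had a median of 82 in ATAC1 (25 to 2917) against 140 over all ATAC1 peaks. In ATAC2 the median was 77.5 (26 to 1834) against 111 over all ATAC2 peaks. Input reads in the same windows had a median of 17 for both libraries (1 to 238 for ATAC1 and 1 to 168 for ATAC2). The fold over Input, as the authors' peak caller gave it, had a median of 5.89 in ATAC1 and 6.51 in ATAC2, and was at least 5 in both libraries for 99 regions and under 5 in both for 39. These values chose the regions and are given as a description. Across the 172 regions the ranks of both libraries correlated with a Pearson's r of 0.393 and a Spearman's rho of 0.323, and r was 0.301 without the 3 best-ranked regions. Both ranks rest on the same Input library.

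**Figure D2:**
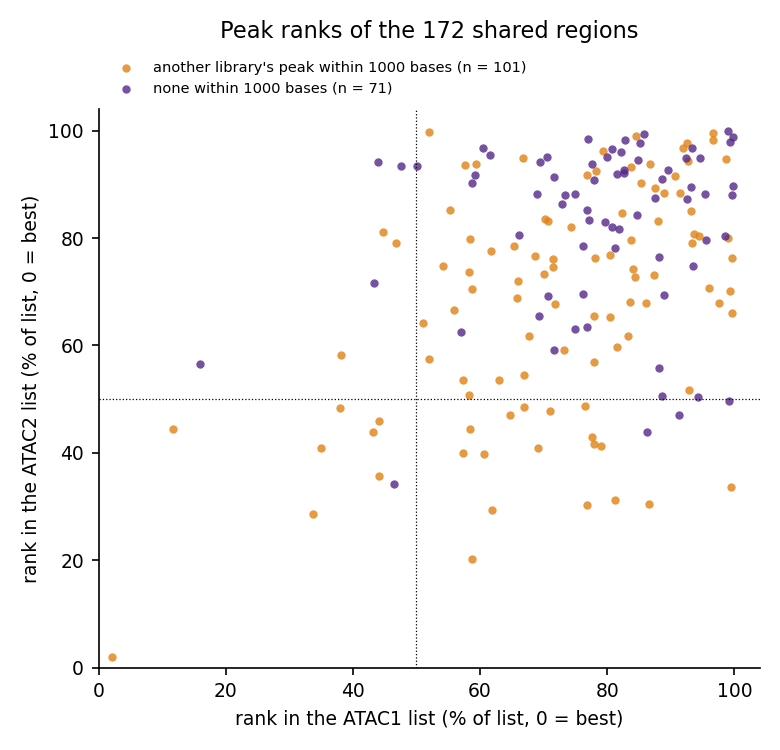
Rank of each of the 172 shared regions in ATAC1 (horizontal axis) and ATAC2 (vertical axis), in percent of the list with 0 as the best peak. Dotted lines mark the list medians, orange points have a peak of another library within 1000 bases (n = 101) and purple points have none (n = 71). Most points, 136, lie in the field below the median of both lists, and a single point lies near 2% in both lists.

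That single strong region lay at 5031425E22Rik (chr5:22939359-22939610), in an untranslated region 253 bases downstream of a start site. It had 2917 reads in ATAC1 against 187 of Input, at rank 529, and 1834 reads in ATAC2 against 168 of Input, at rank 668. A peak of ATAC4 with 1457 reads lay 101 bases away, and outer regions of ATAC3, ATAC4, ATAC5 and ATAC6 covered the place. The region is therefore outside the peaks, but not outside the wider windows, of 4 further libraries. The next 6 regions by rank all lay within 500 bases of a start site. They belonged to Tm9sf2, a transmembrane protein of endosomes and the Golgi, Fkbp4, a co-chaperone of Hsp90, Mta2, a subunit of the NuRD complex, C030046I01Rik, the histone deacetylase gene Hdac2 and Add3, an adducin of the membrane skeleton. The Tm9sf2 region (chr14:122506667-122506892) had 173 reads in ATAC1 against 63 of Input and 178 in ATAC2 against 64. The Fkbp4 region (chr6:128387910-128388184) had 175 against 70 and 129 against 63. The Hdac2 region (chr10:36693706-36694076), 459 bases upstream of the start site, had 286 against 48 in ATAC1 and 285 against 52 in ATAC2. Input was high at these places, and the folds at Tm9sf2 were 3.37 and 4.39.

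At the other end of the lists, the 3 weakest regions by the worse of both ranks lay away from start sites. The weakest (chr19:46730121-46730424), in an untranslated region of D19Wsu162e and nearest to the start site of the steroid hydroxylase gene Cyp17a1, had 58 reads against 8 of Input in ATAC1 and 32 against 6 in ATAC2. The region near Zfpm1, which encodes a cofactor of GATA factors (chr8:124801199-124801460), had 43 against 10 and 58 against 11. Their ranks lay between 98.7% and 99.9%, yet their folds, 5.28 to 8.90, were above those of the better-ranked regions at Tm9sf2 and Fkbp4.

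Read densities come from the same reads as the peak calls, so that a like density in both libraries is in part set by the rule, and they are given as a description. Density was the scaled reads per 1000 bases of outer region, with the scale factor that brings each library to Input. Its median was 325 in ATAC1 and 349 in ATAC2, against 423 and 445 over all peaks of these libraries. The log2 ratio of ATAC1 to ATAC2 had a median of -0.13 (-1.63 to 1.17), and 112 regions were denser in ATAC2 and 60 in ATAC1. Over all 14132 regions of both libraries the median was -0.10 and 59.0% were denser in ATAC2, against 65.1% of the shared regions (57.7 to 71.8). The ratio went beyond 2-fold in 7 regions. The highest ratios of ATAC1 to ATAC2 were near Gm10797, Elf2, Ssr1, Mpp7 and Ngp, where that near Gm10797 alone went beyond 2-fold. The lowest were near Ephb6, Pkd1, Cd7, Glycam1 and Srsf11, all beyond 2-fold.

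Elf2 encodes an ETS factor. Its region (chr3:51143753-51144642), 291 bases downstream of a start site, had 1591 reads against 238 of Input in ATAC1 and 195 against 64 in ATAC2, a log2 ratio of density of 0.93. Ngp encodes a granule protein of neutrophils. Its region (chr9:110325877-110326125), 3747 bases from the start site, had 376 reads against 41 of Input in ATAC1 and 64 against 15 in ATAC2. The windows were 2060 bases in ATAC1 and 619 in ATAC2 at Elf2, and 1024 and 413 at Ngp, where the log2 ratio of density was 0.88, so that the density differed less than the reads did. In the opposite direction, the region 771 bases upstream of Ephb6, an Eph receptor without kinase activity (chr6:41554486-41554935), had 114 reads against 23 in ATAC1 and 88 against 6 in ATAC2, at a log2 ratio of -1.63. The ATAC2 window there was 168 bases long and the ATAC1 window 523, so that the density differed more than the reads did. The region near Cd7, a surface protein of lymphoid cells (chr11:120902683-120902915), had 45 against 9 and 35 against 5, at -1.19, with windows of 382 bases in ATAC1 and 168 in ATAC2, so that this ratio too rests on the window width. The region near Glycam1, a ligand of L-selectin (chr15:103382699-103383129), had 52 against 12 and 97 against 13, at -1.07.

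The shared bases usually made up most of the shorter peak, and few regions hung on an overlap of under 10 bases. The regions had a median width of 267.5 bases (17 to 890) and the peaks shared a median of 111 bases (2 to 425). The lower quartile of the shared bases was 44.75. One peak lay wholly within the other in 76 regions, and 9 regions shared fewer than 10 bases. The smallest overlaps were 2 bases in an intron of Efcab2 (chr1:180394018-180394071), 4 bases near Zfp949 (chr9:88441008-88441206) and 5 bases in Eif3d (chr15:77800576-77801003), a subunit of a translation initiation factor. Just outside the rule were pairs of neighbouring ATAC1-only and ATAC2-only regions. There were 575 such pairs, of which 31 were within 100 bases of each other. The closest adjoined without a shared base, a pair on chromosome 4 and one at chr11:59022787-59022801 for ATAC1 and chr11:59022802-59022824 for ATAC2. The pair on chromosome 11 had 83 reads against 12 of Input in ATAC1 and 49 against 12 in ATAC2. These read counts lay within the range of the shared regions.

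Start sites were frequent among the shared regions, more than among regions of either library alone. The centre of 87 regions (50.6%, 43.2 to 58.0) lay within 1000 bases of an annotated start site. The share was 26.7% for ATAC1-only regions, a difference of 23.9 percentage points (16.4 to 31.4), and 17.5% for ATAC2-only regions, a difference of 33.0 (25.6 to 40.5). It was 26.3% for regions of exactly ATAC1 and ATAC5, a difference of 24.2 (16.2 to 32.1), and 13.5% for those of ATAC2 and ATAC6, a difference of 37.1 (29.5 to 44.6). Regions of all libraries had 85.7%, and all 50683 regions 40.0%, a difference of 10.6 (3.16 to 17.96). Intervals are 95% Wilson intervals for shares and Newcombe intervals for differences. They cover counting error only and do not replace replicates. The share depended on how peaks were joined, since it was 17.8% of 90 regions when peaks within 500 bases of each other were merged and 15.9% of 88 regions when outer regions were used.

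Of the 87 regions near a start site, 53 lay between 300 and 1000 bases from it. They were 30.8% of the shared regions (24.4 to 38.1), against 14.9% of ATAC1-only, 9.26% of ATAC2-only, 5.59% of all-library and 11.6% of all regions. Between 100 and 300 bases lay 22 (12.8%, 8.60 to 18.6), against 11.6% of all regions. Within 100 bases lay 12 (6.98%, 4.04 to 11.8), against 5.84% of ATAC1-only, 3.50% of ATAC2-only, 52.1% of all-library and 16.8% of all regions. Of the 87 regions, 26 were upstream of the nearest start site and 61 at it or downstream. By the annotation, 86 region centres were in introns, 59 between genes, 18 in untranslated regions, 5 in coding exons and 4 in noncoding exons. Introns thus held 50%, against 41.9% of all regions, a difference of 8.15 (0.747 to 15.6). The space between genes held 34.3%, against 40.2%, and untranslated regions 10.5%, against 11.1%, with intervals of the difference that included 0. Away from start sites lay 85 regions, 8 of them more than 100000 bases off (4.65%, against 4.19% of all regions). The farthest were near Gm9843 (chr16:76680451-76681068, 276802 bases), near Bcl6, a transcriptional repressor of lymphoid cells (chr16:24165619-24165856, 176799 bases), and in an intron of Hivep3, a zinc finger gene that acts in bone formation (chr4:119632069-119632377, 144890 bases). Reads there were 87 in both libraries near Gm9843, 86 in ATAC1 and 60 in ATAC2 near Bcl6, and 62 and 44 at Hivep3. At Bcl6 the Input counts of 43 and 37 left folds of 2.46 and 2.56, whereas at Hivep3 they were 10.9 and 8.68.

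**Figure D3:**
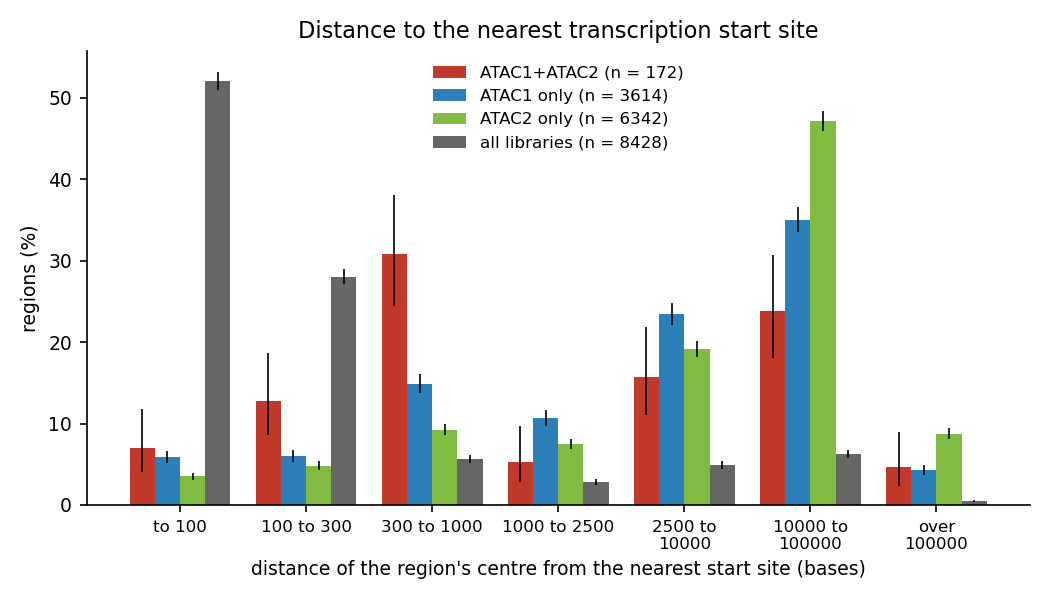
Share of regions (vertical axis, percent, with 95% Wilson intervals) by distance of the centre from the nearest start site in bases (horizontal axis), for the 172 regions of ATAC1 and ATAC2 (red), 3614 ATAC1-only regions (blue), 6342 ATAC2-only regions (green) and 8428 regions of all libraries (grey). The red bar is highest of the 4 between 300 and 1000 bases, at 30.8%, and the grey bar is highest within 100 bases, at 52.1%.

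Many shared regions were close to a peak of a library that the rule excludes. A peak of ATAC3, ATAC4, ATAC5, ATAC6 or ATAC7 lay within 1000 bases of 101 regions (58.7%, 51.3 to 65.8) and within 100 bases of 51. The median gap was 402.5 bases. Peaks of other libraries were within 1000 bases of 29.3% of the regions of exactly ATAC1 and ATAC5, 29.9% of ATAC1 and ATAC4 and 21.5% of ATAC2 and ATAC6, for which there are also 5 other libraries. These gaps come from the same peak lists as the rule and are given as a description. ATAC5 had a peak within 1000 bases of 94 regions, ATAC6 of 88, ATAC3 and ATAC4 of 71 each and ATAC7 of 68, and 63 regions had all 5. ATAC5 and ATAC6 also had the longest peak lists of these 5 libraries. Of the 101 neighbouring regions, 51 were called in all 7 libraries and 56 in both ATAC1 and ATAC2. Outer regions of other libraries covered 97 of the 172 regions, most often those of ATAC5 (88) and ATAC6 (76). In 5 regions, among them those at Hdac2, C030046I01Rik and 1110006G14Rik, a peak of another library adjoined the region without a shared base.

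**Figure D4:**
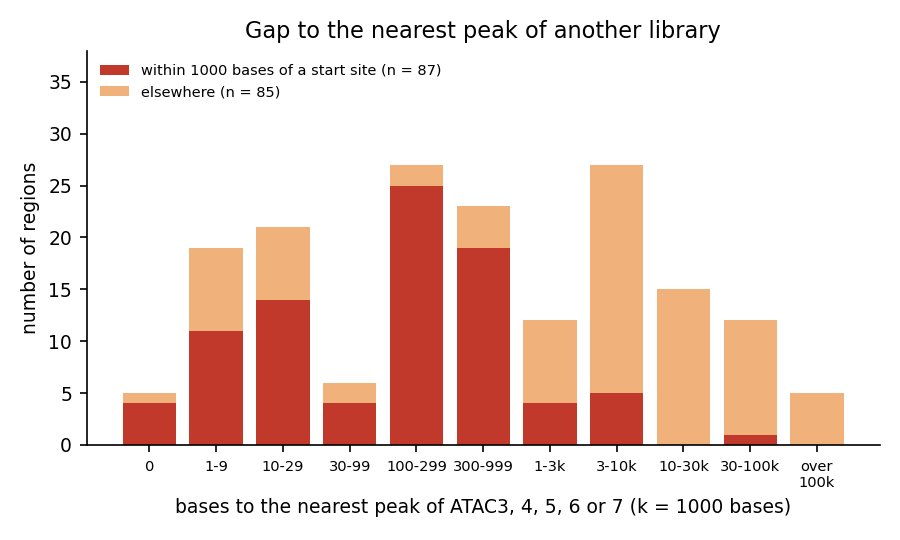
Number of shared regions (vertical axis) by the bases between the region and the nearest peak of ATAC3, ATAC4, ATAC5, ATAC6 or ATAC7 (horizontal axis, in unequal steps), split into the 87 within 1000 bases of a start site (red) and the 85 elsewhere (light orange). Most red counts lie below 1000 bases and most orange counts above it.

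The regions near a start site and the regions near another library's peak were largely the same. Of the 87 at start sites 77 had a peak of another library within 1000 bases, and of the 85 elsewhere 24 had one. The 101 regions with such a neighbour and the 71 without therefore differed in several ways. The median read count was 105 against 67 in ATAC1 and 98 against 54 in ATAC2, and the median rank in ATAC2 was 72.0% against 88.1%. The median number of CpG in the central 200 bases was 8 against 3. Input reads were also lower in the regions that stood apart, at 13 against 21 for ATAC1 and 12 against 23 for ATAC2. The median fold was 6.28 against 5.65 in ATAC1 and 6.45 against 6.65 in ATAC2, so that reads and fold did not go the same way in ATAC1.

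Of the regions that stood apart, 10 were at start sites. They were chosen after their positions had been seen, and lay at Elf2, the vault protein gene Mvp, a U6 gene, Pdzk1ip1, the chromatin gene Arid4b, Gm10160, the polarity kinase gene Mark2, Aldh3b1, Pla2g7 and Tnfaip8. At Mvp (chr7:134157855-134158148), 92 reads against 31 of Input were found in ATAC1 and 61 against 26 in ATAC2. At Pla2g7, which encodes a secreted phospholipase that hydrolyses platelet-activating factor (chr17:43705422-43705707), the centre was 20 bases upstream of the start site, with 58 against 16 and 71 against 15. Its nearest peak of another library was 33287 bases away. Farthest from other libraries was a region near Gvin1, an interferon-inducible GTPase gene (chr7:113380054-113380355), at 420346 bases. It had 83 reads against 4 of Input and 90 against 5, but it was also the sole region of the 172 with a match elsewhere in the genome by blastn, so its reads are uncertain. A region in an intron of the cation channel gene Trpc5 (chrX:140960669-140960865) was 207882 bases from any other library's peak. It had 64 reads against 2 of Input and 44 against 1, so that its folds of 39.1 and 68.8 rest on 1 or 2 Input reads. A region in an intron of Pard3, a cell polarity gene (chr8:129965126-129965288), was 197783 bases away, with 80 against 13 and 49 against 12.

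Base composition differed between regions at start sites and regions away from them. The median GC content of the central 200 bases was 52.5% (51.5 to 54) for the shared regions, against 50% for ATAC1-only, 50.25% for ATAC2-only, 65.5% for all-library and 53.5% for all regions. At start sites it was 56.0% (53.5 to 58.5), against 54.5% for ATAC1-only, 56.0% for ATAC2-only and 63.0% for all regions. Away from start sites it was 51.0% (48 to 52.5), against 49.0%, 49.5% and 50%, in the same order. The GC content of the shared regions at start sites was therefore below that of start-site regions as a whole.

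Among regions away from start sites, AP-1 letters were less frequent in the shared regions than in ATAC2-only and in all regions, and PU.1 and IRF letters were more frequent than in either. For AP-1, PU.1 and IRF the difference from ATAC1-only regions had an interval that included 0. All 16 motifs were compared with several parts, at start sites and away from them. The intervals were not corrected for this number, so that some without 0 can arise by counting error. GATA and EBF letters were more frequent than in ATAC2-only regions, but their difference from all regions had an interval that included 0. The AP-1 letters TGANTCA were in 20 of the 172 centres (11.6%, 7.65 to 17.3), against 9.71% of ATAC1-only, 25.6% of ATAC2-only and 16.1% of all regions, the last a difference of -4.51 percentage points (-8.49 to 1.15). Away from start sites they were in 12 of 85 (14.1%, 8.26 to 23.1). The ATAC2-only regions there had 28.6%, a difference of -14.5 percentage points (-20.5 to -5.49), and the ATAC1-only regions 11.4%, a difference of 2.68 (-3.31 to 11.7). All 30406 regions there had 23.3%, a difference of -9.17 (-15.05 to -0.205). The GATA letters AGATAA were in 8.24% of the 85 (4.05 to 16.04), against 14.9% of ATAC1-only and 3.73% of ATAC2-only regions, differences of -6.71 (-11.1 to 1.201) and 4.51 (0.281 to 12.3), and 7.37% of all regions there, a difference of 0.868 (-3.33 to 8.67). The PU.1 letters GAGGAAGT were in 7 of the 85 (8.24%), against 7.85% of ATAC1-only and 1.84% of ATAC2-only regions, differences of 0.386 (-3.94 to 8.25) and 6.40 (2.19 to 14.2), and 3.02% of all regions there, a difference of 5.22 (1.02 to 13.02). At start sites they were in 1 of 87 (1.15%), against 1.70% of all regions there, and over all 172 centres in 4.65%, against 2.49%, a difference of 2.16 (-0.121 to 6.42). For AP-1 and PU.1 the difference from all regions thus had an interval without 0 only when regions away from start sites were taken alone. The IRF letters GAAANNGAA were in 11.8%, against 8.04% and 4.99%, differences of 3.73 (-1.63 to 12.3) and 6.77 (1.49 to 15.3), and 5.90% of all regions there, a difference of 5.87 (0.614 to 14.4). The EBF letters CCCNNGGGA were in 7.06%, against 4.53% and 3.12%, differences of 2.53 (-1.35 to 10.1) and 3.94 (0.124 to 11.5), and 4.18% of all regions there, a difference of 2.88 (-0.909 to 10.4). RUNX (TGTGGTT, 9.41%), TEAD (GGAATG, 11.8%) and C/EBP (10.6%) had intervals of the difference from both single libraries that included 0.

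The GC box of SP and KLF factors, GGGCGG, was the most frequent match, in 29 of the 172 regions (16.9%, 12.003 to 23.2) against 24.4% of all regions. It was in 22 of the 87 at start sites (25.3%) and 7 of the 85 elsewhere (8.24%). At the same places it was in 22.1% and 7.06% of ATAC1-only regions and 26.3% and 5.64% of ATAC2-only regions. All regions at start sites had 46.5%, a difference of -21.2 percentage points (-29.2 to -11.1), and all regions elsewhere 9.60%, a difference of -1.36 (-5.57 to 6.44). The 14 AP-1 matches among the 71 regions without a neighbouring peak (19.7%, 12.1 to 30.4) compared with 6 among the 101 with one (5.94%, 2.75 to 12.4). For PU.1 the counts were 7 and 1, and for the GC box 5 and 24. Of the 101 regions 77 were at start sites, and of the 71 only 10, so that this split is largely one by position. Over all regions, AP-1 was in 23.3% away from start sites and 5.41% at them. PU.1 was in 3.02% and 1.70% and the GC box in 9.60% and 46.5%, in the same order. No match was found for NRF1 (GCGCATGCG) or YY1 (AAGATGGCG), 1 for CRE (TGACGTCA), 2 for the CTCF motif and 3 for ETS (CCGGAAG). The last 3 were thus in 0.581%, 1.16% and 1.74% of the regions, against 0.898%, 2.55% and 4.51% of all regions, and NRF1 and YY1 were in 0.631% and 0.732% of all regions. NFY was in 6.40%, against 8.08% of all regions. The NF-kB motif was in 7 of the 87 regions at start sites (8.05%), against 4.03% of all regions there, a difference of 4.01 (-0.0916 to 11.7), 3.94% of ATAC1-only regions, a difference of 4.10 (-0.230 to 11.8), and 2.52% of ATAC2-only regions, a difference of 5.53 (1.29 to 13.2). It was in none of the 85 elsewhere, against 3.34% of all regions there, a difference of -3.34 (-3.55 to 0.984). A letter match may overlap another motif and is not a measured binding site.

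**Figure D5:**
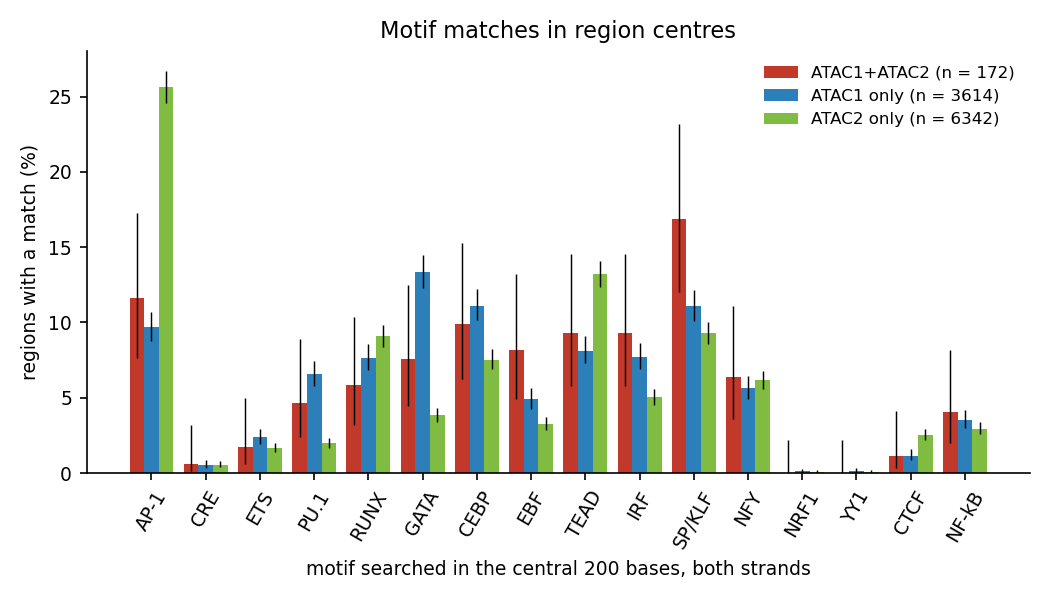
Share of regions whose central 200 bases match each of 16 motifs on either strand (vertical axis, percent, with 95% Wilson intervals), for the 172 regions of ATAC1 and ATAC2 (red), ATAC1-only regions (blue) and ATAC2-only regions (green), whatever their distance from start sites. For AP-1 the red bar, at 11.6%, is near the blue one and below the green one at 25.6%.

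Runx2, Runx1, Mef2c and Hes1 were the listed lineage genes nearest to a shared region. The 172 regions had 170 different nearest protein-coding genes, or 0.764% of the 22238 in the annotation. Of 189 annotated genes in 11 lists, 4 (2.12%, 0.826 to 5.31) were among them, Runx2 of 15 osteoblast genes, Runx1 and Mef2c of 19 haematopoietic genes and Hes1 of 17 Notch genes. None of 25 stromal, 14 chondrocyte, 11 adipocyte, 13 endothelial, 9 sort marker, 15 AP-1 and NF-kB, 28 TGF-beta and BMP or 26 Wnt genes was nearest to one. For comparison, 82 of the listed genes were nearest to an ATAC2-only region, 47 to an ATAC1-only region and 174 to a region of any kind, from far larger numbers of regions.

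At Runx2, the master regulator of osteoblasts, the region (chr17:44873150-44873400) lay in an untranslated region, 150 bases upstream of a further start site of the gene. It had 64 reads against 17 of Input in ATAC1 and 100 against 39 in ATAC2. An ATAC6 peak with 86 reads began 3 bases away, and the start sites of Runx2 also had peaks in ATAC5 and none in ATAC3, ATAC4 and ATAC7. At Runx1, a regulator of blood stem cells, the region (chr16:92698292-92698326) was 736 bases upstream of a start site within an intron, with 82 against 21 and 79 against 26. Each of the 7 libraries had 2 to 6 peaks at Runx1 start sites, and the strongest had 172 to 523 reads. The Mef2c region (chr13:83789571-83789681) was intronic, 125650 bases from a start site of this MADS-box factor, with 44 against 9 and 39 against 9, and an ATAC6 peak lay 30 bases away. The region assigned to Hes1, a repressor downstream of Notch, lay between genes (chr16:30145706-30145969), 79413 bases from its start site, with 74 against 9 and 51 against 14, and 26007 bases from the nearest peak of another library, in ATAC5. Of these 4 regions, that at Hes1 was the sole one without a peak of another library within 1000 bases. The nearest gene is a label of position, and its expression was not used here.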

How the data were processed

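Peak tables of 7 ATAC-seq libraries of mouse bone marrow stromal cells were used, 1 library per title. Per the methods of the study, the authors used bowtie for alignment to mm9, and peaks of each library were called by two-sample CisGenome analysis with Input as control, under a P-value limit and an FDR limit. Shifting of reads and removal of duplicates are not given in the sources used here. The deposited values per outer region are read counts for the library and for Input, and a fold over Input, which is a ratio with an offset of 0.01 added to the Input reads. The authors' rank is a score, and 2 further deposited columns, the ranking statistic and a window value, are signal values made by the peak caller. They were identified from the values, as the tables have no header. Total reads per library and an FDR per peak were not used here.

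Peaks with at least 1 common base were merged. Coordinates were read as counted from 1, since length was end minus start plus 1 in all 164103 peaks. The scale factor of a library was recovered from fold and counts to within 0.0398%. Genes came from the GENCODE vM1 annotation of NCBIM37, the build mm9. Shares had 95% Wilson intervals, differences Newcombe intervals and medians order-statistic intervals, all for counting error only. With 1 library per title no p-value was computed. Motifs were searched as fixed letters on both strands in the central 200 bases. Stretches of untranslated regions were not printed. Some regions that the rule names are not reported here. Named regions were taken by rule: the 8 best and 3 weakest by the worse rank, the extremes of overlap, gap, distance and density, and those nearest to a listed gene. The regions, lists, motifs and rules were chosen with earlier results of these data known. The merging step was tested on simulated regions planted far apart and on a few touching peaks. Regions close to a further library's peak were not simulated. Python 3.11.15, numpy 2.4.6, pandas 2.3.3, scipy 1.17.1, matplotlib 3.10.9, pysam 0.24.0 and blastn 2.17.0 were used.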

Additional observations from a re-analysis of the deposited data

How the results depend on the processing

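The number of regions, 172, was 465 without the calls of ATAC5, 359 without those of ATAC6, 309 when only peaks sharing at least 50 bases were linked, 90 when peaks within 500 bases were merged, 88 with outer regions, 40 with equal peak numbers and 71 without regions near another library's peak. The share at start sites was 40.0% without ATAC5, 59.8% with a fold of at least 5, 60% with equal peak numbers, 17.8% with merging within 500 bases, 15.9% with outer regions, 14.1% for the 71 regions and 30.8% when 500 bases counted as near. The share with a peak of another library within 1000 bases was 44.7% without ATAC5, 83.2% with at least 50 shared bases, 69.5% with a fold of at least 5, 11.4% with outer regions and 8.89% with merging within 500 bases. The median rank in ATAC1 was 72.8% without ATAC3, 71.6% with at least 50 shared bases, 67.9% with a fold of at least 5, 52.2% with equal peak numbers and 81.7% with outer regions. In ATAC2 it was 72.1% without ATAC5, 69.1% without ATAC6, 65.4% with at least 50 shared bases, 68.6% with a fold of at least 5, 38.6% with equal peak numbers, 86.4% with outer regions, 85.8% with merging within 500 bases and 88.1% for the 71 regions. Equal peak numbers remove low ranks by construction. The median GC content moved outside its interval with equal peak numbers, at 55.75%. Listed genes nearest to a region numbered 7 without ATAC3, 10 without ATAC5, and 1 each with equal peak numbers, outer regions, merging within 500 bases and the 71 regions. A match to any motif was in 70.3% of the central 200 bases and 41.3% of the central 100, and in the latter 10 of the 16 single motifs fell below the interval of their share, such as AP-1 (5.81%), SP/KLF (9.30%), GATA (4.07%), EBF (2.91%), TEAD (3.49%) and IRF (4.65%). A shorter window holds fewer letters by construction. Of the other settings, 54 comparisons beside those of single motifs stayed within the interval or within 1.5 times the count. The settings for the 71 regions and for listed genes were added after seeing the data. A stricter FDR was not run, as the tables hold none per peak. No paired analysis was possible because every title holds a single library.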
